A study of Mus musculus with 2 samples.

Results

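Sebum is made by sebocytes, the lipid-filled cells of the sebaceous glands that open into hair follicles, and 10 genes of that lipid programme were followed here in ear epidermis under imiquimod. They are Scd1, Elovl3, Far2, Awat1, Awat2, Dgat2l6, Mogat1, Soat1, Cidea and Mc5r, picked by symbol from a table of 26242 named genes. Each symbol matched 1 row, and 9 of the 10 reached 1 FPKM, a level in fragments per kilobase of transcript that is scaled by sequencing depth, in at least 1 library. Mogat1 did not.

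The study compared wild-type C57BL/6 mice with C57BL/6 mice carrying a K14 conditional knockout of Il9ra, the receptor for interleukin-9. K14 is a keratin of basal keratinocytes and of the outer layers of hair follicles and glands that grow from the epidermis. Ears of both genotypes received 5% imiquimod cream, a Toll-like receptor 7 agonist that produces psoriasis-like inflammation, for 6 consecutive days, and no library came from untreated skin. Each genotype was represented by 1 library of the epidermal sheet, and how many animals stand behind it is not stated in the labels. No difference below could therefore be set against a spread between animals, and no p-value was computed. From the steps between low values the wild-type library was estimated at about 24000000 fragments and the knockout library at about 31200000. In a whole sheet, fewer cells of a type and less RNA per cell cannot be told apart.

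Sebocytes fill with triglycerides, wax esters and sterol esters, then burst and release them onto the hair and skin surface. Desaturases and elongases shape the fatty acids, reductases turn some of them into fatty alcohols, and acyltransferases join alcohols, glycerides or cholesterol to fatty acids. The esters are stored in lipid droplets until the cell breaks down. In mice, melanocortin signalling through Mc5r is needed for normal sebum output, and loss of Scd1 leaves the glands small.

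The wax ester genes Awat2, Dgat2l6 and Awat1 lie within 176.0 kb of the X chromosome, and their levels per length were far apart. Awat1 and Awat2 encode acyl-CoA wax alcohol acyltransferases, which join a fatty alcohol to a fatty acid, and Dgat2l6 encodes a relative named for its similarity to DGAT2. In GRCm38, the assembly also called mm10, Awat2 spans bases 100402221 to 100442717 of the minus strand, Dgat2l6 bases 100524838 to 100546144 and Awat1 bases 100572251 to 100578205 of the plus strand, each with 7 exons in the transcript matched to the deposited accession. The gap between Awat2 and Dgat2l6 is 82.1 kb and that between Dgat2l6 and Awat1 is 26.1 kb. RefSeq places 2 other protein-coding genes, Igbp1 and Otud6a, within the same span. The 250 bases before each RefSeq start are shown because these clustered genes had unlike levels. Awat2 has 2 such starts: the inner one begins the transcript matched to the deposited accession, and the outer one lies at the end of the gene's span. The windows are RefSeq's on GRCm38.p6, written 5′ to 3′ on the strand of the gene, with capitals for any of the motifs named after them.
Awat1, plus strand, chrX:100571997-100572246: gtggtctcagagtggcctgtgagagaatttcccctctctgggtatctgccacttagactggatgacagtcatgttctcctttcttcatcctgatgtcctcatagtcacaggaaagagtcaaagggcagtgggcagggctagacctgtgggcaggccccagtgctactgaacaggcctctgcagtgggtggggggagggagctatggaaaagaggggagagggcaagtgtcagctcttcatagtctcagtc
Dgat2l6, plus strand, chrX:100524588-100524837: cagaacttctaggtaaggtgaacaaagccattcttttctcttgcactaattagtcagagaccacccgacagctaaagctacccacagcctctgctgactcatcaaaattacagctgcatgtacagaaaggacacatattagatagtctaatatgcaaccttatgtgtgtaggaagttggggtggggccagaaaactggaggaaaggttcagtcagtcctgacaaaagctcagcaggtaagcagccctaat
Awat2, inner start, minus strand, chrX:100412588-100412837: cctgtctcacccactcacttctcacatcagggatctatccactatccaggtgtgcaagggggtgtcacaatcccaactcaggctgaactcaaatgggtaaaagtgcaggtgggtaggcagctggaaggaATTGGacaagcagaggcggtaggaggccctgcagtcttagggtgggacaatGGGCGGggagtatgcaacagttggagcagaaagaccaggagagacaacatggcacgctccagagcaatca
Awat2, outer start, minus strand, chrX:100442718-100442967: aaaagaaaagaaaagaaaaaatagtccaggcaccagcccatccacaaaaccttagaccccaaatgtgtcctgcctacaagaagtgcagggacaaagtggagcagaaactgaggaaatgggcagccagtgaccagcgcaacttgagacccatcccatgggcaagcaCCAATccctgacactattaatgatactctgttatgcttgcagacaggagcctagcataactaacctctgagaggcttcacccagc

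Both strands were searched for a TATA box spelled TATAAA, for the CCAAT box by those letters, for a GC box spelled GGGCGG, for the half-site of nuclear receptors such as the PPAR-RXR pair, spelled AGGTCA, and for an E box spelled CACGTG. None of these motifs overlapped another in the windows printed. The Awat1 and Dgat2l6 windows held none of the 5. The inner Awat2 window held a CCAAT box, on the opposite strand, that begins 121 bases before the start and a GC box that begins 70 bases before it. The outer Awat2 window held a CCAAT box that begins 85 bases before the start and no GC box. Of all 32851 RefSeq windows of that length, 12.4% held the TATA box, 33.8% the CCAAT box, 32.7% the GC box, 14% the receptor half-site and 6.02% the E box. CpG pairs numbered 0 in the Awat1 window, 1 in the Dgat2l6 window, 3 in the inner and 1 in the outer Awat2 window, against a median of 6 over all windows. Windows were at hand for 6 of the 10 members, and among the autosomal ones that of Far2 had 2 GC boxes and that of Soat1 a CCAAT box 30 bases before its start, while that of Mogat1 held none of the 5 motifs.

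Awat1 had a level of 60.5 FPKM in wild type and 68.9 FPKM in knockout. Dgat2l6 had 7.01 FPKM in wild type and 8.54 FPKM in knockout, and Awat2 had 2.87 and 2.28 FPKM. The order of the 3 genes was thus the same in both libraries, with Awat1 at 21.1 times the level of Awat2 in wild type and at 30.2 times in knockout. Awat2 was lower in the knockout library, at 0.79 times its wild-type value, whereas Dgat2l6 was at 1.22 times and Awat1 at 1.14 times theirs. The Awat2 values rest on about 112 and 115 estimated fragments and those of Dgat2l6 on about 276 and 437, against about 2020 and 2990 for Awat1. The coding sequences of Awat1 and Awat2 were 62.5% identical, those of Awat2 and Dgat2l6 60.6%, and no stretch longer than 20 bases was shared between the transcripts of any pair of the 3.

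Far2, which encodes the fatty acyl-CoA reductase that supplies fatty alcohols for wax esters, is on chromosome 6 (148047259 to 148182758, plus strand, 13 exons). It had 79.4 FPKM in wild type and 86.4 FPKM in knockout, a log2 difference of 0.12. Differences given on the log2 scale are log2((knockout FPKM + 1)/(wild-type FPKM + 1)), which understates the difference of low genes. In both libraries the reductase and Awat1 were close in level, at a Far2 to Awat1 ratio of 1.31 in wild type and 1.25 in knockout.

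Among the fatty acid enzymes, Scd1 was by far the most abundant member. It encodes stearoyl-CoA desaturase 1, which makes monounsaturated fatty acids, and lies on chromosome 19 (44394455 to 44407879, minus strand, 6 exons). Its level was 732 FPKM in wild type and 722 FPKM in knockout, rank 132 and rank 135 among the 26242 genes. The log2 difference of Scd1 was -0.02, and its sign changed, to 0.0014 and 0.0029, when the libraries were scaled to a common upper quartile or centred on the median gene. Scd1 supplied 65.7% of the summed FPKM of the 10 members in wild type and 63.6% in knockout. The neighbouring copies are similar enough to share reads: the Scd1 coding sequence was 90.4% identical to that of Scd3 and 89.8% to that of Scd2, with identical stretches of 185 and 147 bases in the transcripts. The level of Scd1 is uncertain to that extent, beside 144.6 and 137.0 FPKM for the row that holds Scd2 and 4.17 and 3.84 FPKM for Scd3.

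Elovl3, an elongase of very long chain fatty acids that is expressed in mouse sebaceous glands, is also on chromosome 19 (46131897 to 46135694, plus strand, 4 exons). It had 136.9 FPKM in wild type and 138.6 FPKM in knockout, a ratio of 1.01. Elovl3 was the second most abundant member and held 12.3% of the members' sum in wild type and 12.2% in knockout. Across the 11886 genes that reached 1 FPKM, 91.9% were at least as far apart as Elovl3.

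Soat1 and Mogat1 make neutral lipids of other kinds. Soat1 encodes sterol O-acyltransferase 1, which esterifies cholesterol in many cell types including macrophages, and lies on chromosome 1 (156424525 to 156474331, minus strand, 16 exons). It had 38.4 FPKM in wild type and 36.4 FPKM in knockout, a log2 difference of -0.08. The summed level of 6 monocyte and macrophage markers was 15.7 FPKM in wild type and 14.6 FPKM in knockout, with 3 of the 6 at 1 FPKM or more, and its part in the Soat1 values was not tested. Mogat1, a monoacylglycerol acyltransferase gene on chromosome 1 (78510991 to 78538173, plus strand, 6 exons), was listed at 0.045 FPKM in wild type and at 0 in knockout. The wild-type value corresponds to about 1 fragment, so a difference in Mogat1 was not detectable at this depth.

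Cidea and Mc5r, the lipid droplet and receptor genes, both lie on chromosome 18 and were both somewhat higher in the knockout library. Cidea encodes a lipid droplet protein that promotes droplet fusion and spans bases 67343604 to 67367785 (plus strand, 5 exons). It had 54.1 FPKM in wild type and 67.8 FPKM in knockout, a ratio of 1.25 and a log2 difference of 0.32, the highest of the members. That size is not rare in this pair of libraries, since 10.6% of the 11886 genes were at least as far apart. Mc5r, the melanocortin 5 receptor gene (68337596 to 68342446, plus strand, 2 exons), had 3.00 FPKM in wild type and 3.56 FPKM in knockout, or about 282 and 434 estimated fragments. Its log2 difference was 0.19, and 27.7% of genes were at least as far apart.

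**Figure D1:**
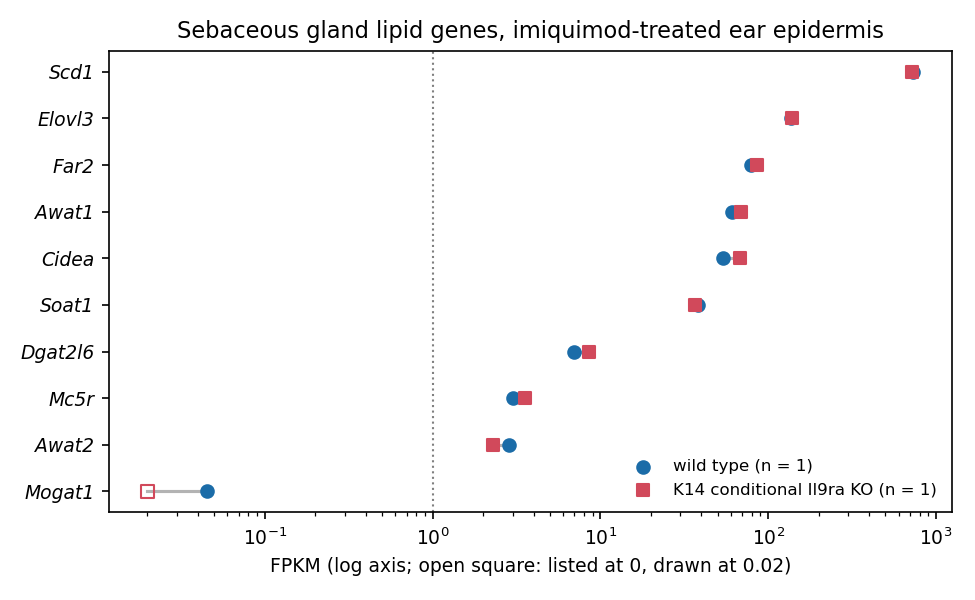
Level of each sebaceous gland lipid gene in FPKM (log axis) in the wild-type library (circles) and the K14 conditional Il9ra knockout library (squares), 1 library each, ordered by mean level, with a dotted line at 1 FPKM. Scd1 is at 732 and 722 FPKM, and Mogat1 is left of the line at 0.045 FPKM and, as an open square, at 0.

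The order of levels was the same in both libraries, from Scd1 through Elovl3, Far2, Awat1, Cidea, Soat1, Dgat2l6, Mc5r and Awat2 to Mogat1. Some neighbours in that order were close, such as Awat1 and Cidea in knockout at 68.9 and 67.8 FPKM and Mc5r and Awat2 in wild type at 3.00 and 2.87 FPKM. Without replicates it is unknown whether such neighbours differ. The plot of levels by library shows the members in 3 ranges: Scd1 alone, then 5 genes between 36.4 and 138.6 FPKM, then 3 genes between 2.28 and 8.54 FPKM, apart from Mogat1.

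No member was 2-fold apart between the genotypes, where 0.757% of all 11886 genes were, 0.412% higher and 0.345% lower in knockout. Among the 9 members that passed 1 FPKM, 0 were 1.5-fold apart, where 2.75% of all genes were. Of these 9, 6 were higher in the knockout library (Elovl3, Far2, Awat1, Cidea, Dgat2l6 and Mc5r), where 44.4% of all genes were, and 3 were lower (Scd1, Soat1 and Awat2), where 55.6% of all genes were. Their median log2 difference was 0.12, beside -0.02 over all genes, and their range was -0.24 (Awat2) to 0.32 (Cidea). The summed level of the 10 members was 1114 FPKM in wild type and 1134 FPKM in knockout, a ratio of 1.02, and without Scd1 it was 382 and 412 FPKM, a ratio of 1.08. In the authors' deposited table, the p-value of the 9 genes ran from 0.26565 (Cidea) to 0.95745 (Scd1), each with q = 0.999, from a test that compares these libraries and not the genotypes.

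**Figure D2:**
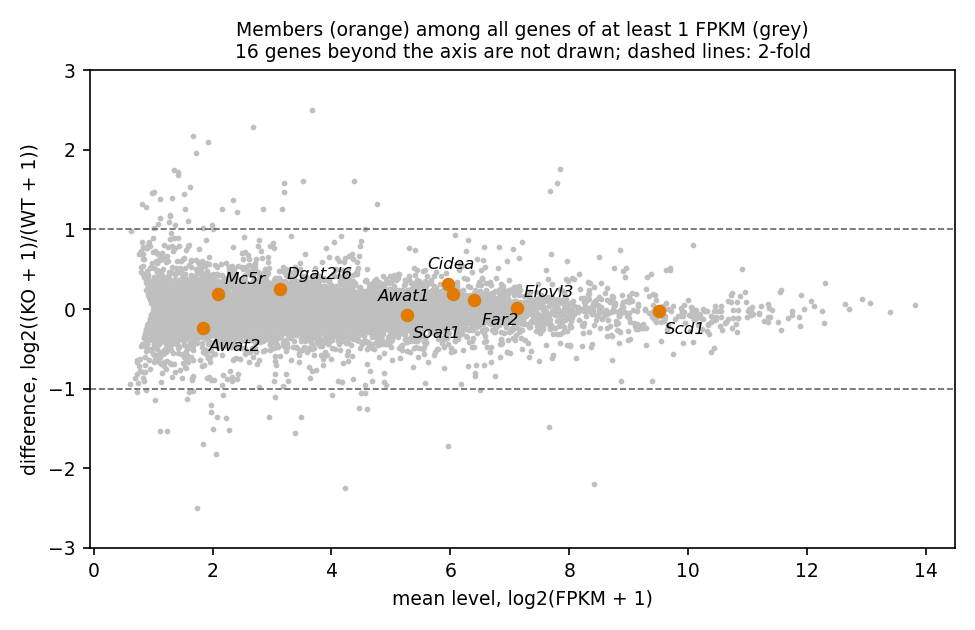
Difference between knockout and wild type, as log2((KO FPKM + 1)/(WT FPKM + 1)), against mean level, as log2(FPKM + 1), for the 11886 genes that reached 1 FPKM (grey) and the 9 members among them (orange); dashed lines mark 2-fold. The members lie between -0.24 and 0.32, inside the grey cloud, and 16 genes beyond the axis are not drawn.

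Other genes of the same lipid pathways included none 2-fold apart among those that passed 1 FPKM, where 0.757% of all genes were. At that share, lists this short would hold few or none. For the splits given per list, 44.4% of all genes were higher and 55.6% lower in knockout. Among 12 other elongases and desaturases, 10 passed 1 FPKM, 4 were higher and 6 lower in knockout, with a median log2 difference of -0.03. Elovl4, which makes the ultra-long fatty acids of barrier ceramides, had 485 FPKM in wild type and 543 FPKM in knockout, and Elovl1, another very long chain elongase, had 240.2 and 230.6 FPKM. The ends of that list were the desaturase gene Fads2, at 0.79 and 1.14 FPKM, and Fads3, at 2.36 and 1.90 FPKM.

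Of 16 other genes for acyltransferases, phosphatidate phosphatases and reductases, 14 passed, 9 of them higher and 5 lower, with a median of 0.03 and none 2-fold apart. Dgat2, the triglyceride-forming relative of the Awat genes, was the most abundant at 149.3 FPKM in wild type and 141.6 FPKM in knockout. The acylglycerol-phosphate acyltransferase genes Agpat3 and Agpat4 had 44.1 and 43.3 FPKM and 38.4 and 40.3 FPKM. The list ran from Lpin2, a phosphatidate phosphatase gene at 2.45 and 1.78 FPKM, to Gpat3, a glycerol-phosphate acyltransferase gene that the table names Agpat9, at 2.39 and 2.88 FPKM.

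Of 17 other lipid droplet and lipolysis genes, 11 passed, 6 higher and 5 lower, with a median of 0.0040. Plin2, the droplet coat protein of sebocytes and many other cells, had 112.4 FPKM in wild type and 112.7 FPKM in knockout, and the monoglyceride lipase gene Mgll had 193.0 and 206.4 FPKM. Bscl2, which encodes the droplet assembly protein seipin, had 85.7 and 88.7 FPKM. Pnpla3, a lipase-family gene of lipid droplets, stood farthest from 0 in that list at 3.45 and 5.89 FPKM, a log2 difference of 0.63, and Lipe, the hormone-sensitive lipase gene, was lowest at 9.88 and 8.13 FPKM.

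The melanocortin ligands with a row and the other receptors were near the floor. Asip, a further ligand gene of the list, had no row, so its level is unknown. Of the 9 listed genes with a row, Atrn, which encodes attractin, was the 1 that passed, at 4.86 and 4.65 FPKM, and Pomc, Mc3r and Mc4r were listed at 0 in both libraries. Mc5r was therefore the only melanocortin receptor gene of the 5 with at least 1 FPKM in either library.

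Of 15 genes of the sebocyte lineage, 14 passed, with 6 higher and 8 lower in knockout and a median log2 difference of -0.19. Pparg, the nuclear receptor that drives sebocyte differentiation, had 7.18 FPKM in wild type and 8.41 FPKM in knockout. Krt79, a keratin of the sebaceous duct and upper follicle, had 511.8 and 549.2 FPKM. Pparg, Krt79 and Plin2 were looked up as further sebaceous markers, and these 3 were above 1 FPKM in both libraries, as were 9 of the 10 members. Several other lineage genes were lower in knockout, among them the progenitor gene Lrig1, at 12.1 and 9.60 FPKM, and the transcription factor genes Gata6, at 2.52 and 1.82 FPKM, Prdm1, at 12.98 and 10.58 FPKM, Sox9, at 28.0 and 23.0 FPKM, and Srebf1, at 77.9 and 63.2 FPKM.

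At the ends of the lineage list, Myc was at 103.4 FPKM in wild type and 122.8 FPKM in knockout, and Plet1, a surface protein gene of the follicle junction zone that the table names 1600029D21Rik, was at 191.0 and 125.1 FPKM, a log2 difference of -0.61. The C/EBP transcription factor genes Cebpb and Cebpa, which are abundant in keratinocytes as well, had 329.7 and 343.4 FPKM and 233.3 and 186.9 FPKM.

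Markers of neighbouring cell types were compared because they share the sheet with the glands. Of 14 hair follicle markers with a row, 11 passed, with a median log2 difference of -0.37. Of these 11, 8 were lower in knockout, where 55.6% of all genes were, and 3 were higher, where 44.4% were. The whole list summed to 145.1 FPKM in wild type and 136.9 FPKM in knockout, a ratio of 0.94, with Gata3 as its most abundant gene. The 10 hair keratin and trichohyalin genes among them, a subset chosen after their values were seen, summed to 21.5 FPKM in wild type and 11.0 FPKM in knockout, a ratio of 0.51. All were low: 7 of the 10 passed, each lower in knockout. Krt28, Krt31 and Krt35 passed through wild type alone, at 1.09, 1.35 and 1.03 FPKM, against 0.60, 0.73 and 0.59 FPKM in knockout. They could therefore only count as lower, and they enter the 8 lower markers and the median of -0.37. Krt72 was read from the row named Krt72-ps, at 0.027 and 0.047 FPKM. Krt71, an inner root sheath keratin, was the 1 marker 2-fold apart with 1 FPKM added, at 5.17 and 1.92 FPKM, and Krt25, another one, was at 4.80 and 2.26 FPKM, 0.47 times as FPKM alone. Among the transcription factor genes of the list, Gata3 had 86.1 and 83.9 FPKM, Dlx3 23.3 and 25.8 FPKM, Msx2 11.3 and 12.5 FPKM and Hoxc13 2.79 and 3.74 FPKM.

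Keratinocyte markers all passed, with a median of 0.06 over 10 genes, and the 3 most abundant, Krt10, Krt14 and Krt5, had ratios of 1.04, 1.09 and 1.07. The list ran from Ivl, which encodes involucrin, at 125.5 and 102.4 FPKM, to the row that holds Flg (filaggrin), at 72.0 and 87.2 FPKM. Among adipocyte markers, which matter because fat cells also express Scd1 and Cidea, Adipoq, Plin1, Cfd, Lep and Car3 were listed at 0 in both libraries. The 10 markers summed to 31.8 FPKM in wild type and 35.2 FPKM in knockout. The 3 that passed made up most of that sum: Adig at 18.6 and 18.8, Lpl at 11.9 and 13.7 and Fabp4 at 0.97 and 2.43 FPKM. A part of fat cells in the Scd1 and Cidea values was not tested. Fibroblast markers summed to 2.53 and 2.07 FPKM, with Dcn (decorin) the 1 that passed at 2.02 and 1.59 FPKM. Of the macrophage markers, Csf1r had 8.89 and 7.15 FPKM, Cd68 4.36 and 4.84 FPKM and Cd14 1.57 and 2.02 FPKM. The others on that list were below 1 FPKM in both libraries: Adgre1 (as Emr1) at 0.73 and 0.43, Lyz2 at 0.12 and 0.094 and Mrc1 at 0.043 and 0.054 FPKM.

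**Figure D3:**
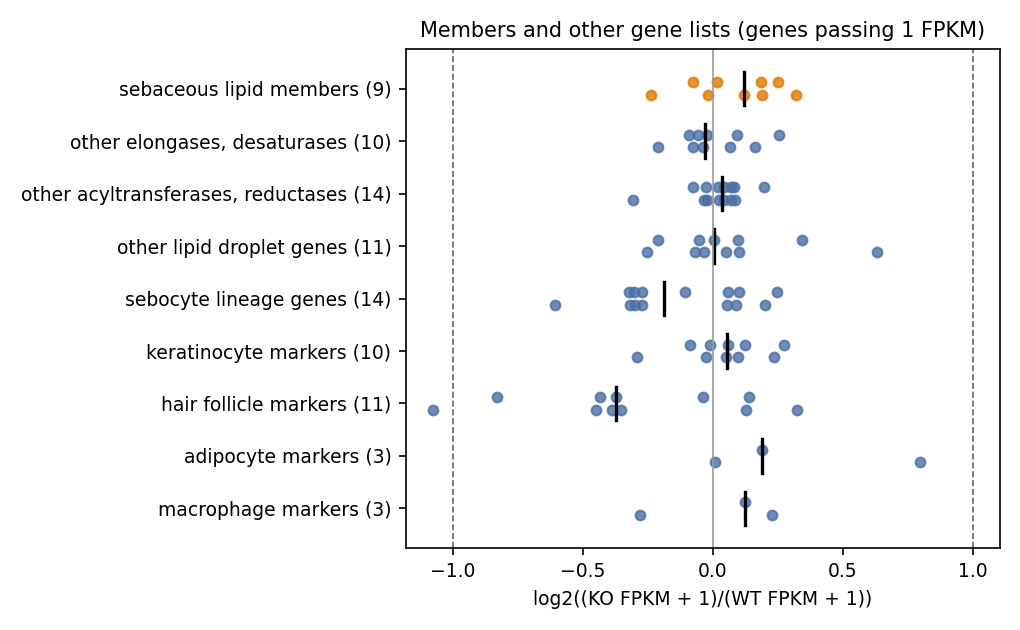
Difference between knockout and wild type, as log2((KO FPKM + 1)/(WT FPKM + 1)), for each gene that passed 1 FPKM in the sebaceous lipid list (orange) and in 8 comparison lists (blue), with the number of genes in brackets, a black bar at each median and dashed lines at 2-fold. The sebaceous lipid genes have a median of 0.12 and the hair follicle markers one of -0.37, with Krt71 beyond the 2-fold line. Of the hair follicle markers, Krt28, Krt31 and Krt35 passed through wild type alone and could only fall below 0.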

How the data were processed

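RNA was measured in 2 libraries of ear epidermis, 1 per genotype, grouped by the genotype label. The epidermis was lifted off after dispase II digestion (1 mg/ml for 1 h at 37 °C), and 3 µg of total RNA entered each mRNA library, per the labels' protocols. The label for the knockout gives neither the Cre line nor the deleted part of the gene. The tools were TopHat2 2.0.13 and Cufflinks 2.2.1 on mm10, per the submitters' processing notes. Their options, the annotation, strand use and library scaling were not given in the sources used here. FPKM per row were deposited with the authors' log2 fold change, test statistic (a score), p-value and q-value, per the file headers.

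Of 29246 rows, 26264 had a name and a RefSeq transcript, and rows of 1 name were summed, which left 26242 genes. A gene passed with at least 1 FPKM in either library, and 1 FPKM was added before log2. Depth was estimated from steps of FPKM times length among low genes of 3 to 12 kb. The next step lay at 2.03 and 1.97 times the first. It was sought only in a range around such values, so it does not check the estimate. Fragment numbers are approximate and carry no interval. Fragment numbers of members use the length of 1 matched RefSeq transcript. The rows of Awat2, Dgat2l6 and Far2 also hold 3 transcripts assembled by Cufflinks each, and those of Scd1, Soat1 and Mc5r 1 each. Gene positions are from GENCODE M21. Coding sequences were aligned globally with Biopython 1.88. Named genes are all members and, per list, those 2-fold apart, the highest and lowest difference and the 3 most abundant. Pparg was a marker fixed with the lists. Scd3, Krt25, the lineage genes lower in knockout and the genes listed at 0 were added after their values were seen. So were Krt28, Krt31, Krt35, Krt72 and the macrophage markers below 1 FPKM. Asip is named because it had no row. Members and lists were chosen with earlier results of these data known. Only the 2-fold call and the depth estimate were tried on simulated fragments. That simulation held no variation between animals, so it does not show how far single libraries can be trusted. Python 3.11.15, numpy 2.4.6, pandas 2.3.3 and matplotlib 3.10.9 were used.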

Additional observations from a re-analysis of the deposited data

How the results depend on the processing

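No paired analysis was possible because each genotype has 1 library. Pseudocounts of 0.1 and 5 FPKM, no filter and a filter of 5 FPKM were tried. So were upper quartile scaling, centring on the median gene and a 1.5-fold threshold. In each, 0 members were past the threshold. The shares over all genes were, in that order, 1.71%, 0.269%, 0.343%, 0.599%, 0.756%, 0.749% and 2.75%. At such shares a list this short would hold few or none. The median log2 difference of the members that passed ran from 0.07 (no filter) to 0.14 (centred). Of 40 values of single members under the pseudocounts and both scalings, 38 moved by under 0.1 on the log2 scale, a tolerance set after the data were seen. The other 2 were Awat2 with 5 FPKM (-0.11) and Mogat1 with 0.1 FPKM (-0.54), which rests on about 1 fragment. Scd1 alone changed sign, under both scalings. With each deposited row counted alone, 1.75% of 13094 rows were 2-fold apart, and the members, at 1 row each, kept their values. Single libraries and, for Awat2, Dgat2l6 and Mc5r, few fragments limit what these values can show.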

Other observations

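In the adipocyte list, Adig, which encodes adipogenin, had 18.6 FPKM in wild type and 18.8 FPKM in knockout although Adipoq and Plin1 were listed at 0 in both libraries. Lpl, the lipoprotein lipase gene, which macrophages express as well, had 11.9 and 13.7 FPKM. Fabp4, a fatty acid binding protein gene of adipocytes and macrophages, had 0.97 and 2.43 FPKM, a ratio of 2.50. With 1 FPKM added its log2 difference was 0.80, under 2-fold, and it passed 1 FPKM through the knockout library alone. In the skeletal muscle list, Mylpf, a myosin light chain gene, had 5.16 and 5.69 FPKM, while Myh4 and Myl1 were listed at 0 in both libraries. Hilpda, a lipid droplet gene that responds to low oxygen, had 27.1 FPKM in wild type and 34.7 FPKM in knockout. Scd4, Plin5 and Cidec were below 1 FPKM in both libraries, at 0.63 and 0.28, 0.73 and 0.30, and 0.66 and 0.27 FPKM. Fitm1, a lipid droplet gene also below 1 FPKM, went the other way, at 0.21 FPKM in wild type and 0.64 FPKM in knockout. Lpl, Hilpda, Scd4, Plin5, Cidec and Fitm1 were picked after their values were seen.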
